A study of Homo sapiens with 6 samples.

Results

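GNG7 and GNA11 are 2 genes on chromosome 19 that encode subunits of heterotrimeric G proteins. They were examined in 3 deposited lists of regions whose DNA methylation differed between HepG2 cells with and without overexpression of DNMT3A, a de novo DNA methyltransferase. A region was taken when it overlapped chr19:2510000-2704000 for GNG7 or chr19:3093000-3125000 for GNA11 on hg38, which is the gene with about 1 kb added on each side. Of the 4344 regions in the 3 lists, 30 met this rule, 27 in GNG7 and 3 in GNA11. The authors had called every such region from the same comparison, so the regions were chosen by their levels and differences, which are given as a description, with no test.

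HepG2 is an established human hepatocellular carcinoma line. The 6 libraries were made by reduced representation bisulfite sequencing (RRBS), in which MspI cuts DNA at CCGG and bisulfite converts unmethylated cytosines, and held 25.8 M to 29.9 M mapped reads (M, mega-reads). Of these, 3 came from cells given a control lentivirus, labelled WT, and 3 from cells given a lentivirus that overexpresses DNMT3A. Each list compares the DNMT3A library with the control library of the same number, here called pairs 1, 2 and 3. The labels name no separate cultures, so the spread between libraries of a group may be technical, nor do they say whether the infected cells were a pool or a clone. The mapping rate was 76.25% to 76.88% in the DNMT3A libraries and 75.96% to 76.2% in the controls, without overlap, and its part in the results below was not tested. No RNA or protein level was examined here, for DNMT3A, GNG7 or GNA11, and reads per region are not part of the lists, so the depth behind each level is unknown.

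A heterotrimeric G protein has an alpha subunit, which binds guanine nucleotides, and a tight dimer of a beta and a gamma subunit. An activated receptor loads the alpha subunit with GTP, and the alpha subunit and the dimer then act on separate effectors. GNA11 encodes G alpha 11, a member of the Gq family that activates phospholipase C beta and so raises inositol trisphosphate, calcium and protein kinase C activity. In liver this route carries signals of hormones such as vasopressin. GNG7 encodes the gamma 7 subunit, best known in the striatum, where it joins the alpha subunit of the olfactory type in dopamine and adenosine receptor signalling to adenylyl cyclase.

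Sequences were taken from RefSeq (GRCh38.p14, the build of the lists), which held start-site windows of 300 bases for both genes, from 250 bases before the annotated start to 50 after it. They are shown because RRBS reads begin at MspI sites and because no listed region of any pair overlapped either window. Capitals mark CCGG, the MspI site, whose letters read the same on both strands.

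GNG7 start (chr19:2702645-2702944, minus strand): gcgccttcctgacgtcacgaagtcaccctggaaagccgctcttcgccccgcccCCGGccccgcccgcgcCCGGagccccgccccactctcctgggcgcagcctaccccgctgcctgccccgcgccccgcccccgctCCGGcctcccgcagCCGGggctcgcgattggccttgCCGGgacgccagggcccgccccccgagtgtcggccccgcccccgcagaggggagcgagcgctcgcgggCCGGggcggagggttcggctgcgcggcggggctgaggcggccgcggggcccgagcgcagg

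GNA11 start (chr19:3094112-3094411, plus strand): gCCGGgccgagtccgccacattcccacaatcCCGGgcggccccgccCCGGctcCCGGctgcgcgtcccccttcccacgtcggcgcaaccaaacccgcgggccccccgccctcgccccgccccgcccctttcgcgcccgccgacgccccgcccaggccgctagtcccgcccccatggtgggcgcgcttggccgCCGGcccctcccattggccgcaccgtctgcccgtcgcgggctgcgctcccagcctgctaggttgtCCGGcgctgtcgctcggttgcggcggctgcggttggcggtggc

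Each window held 6 non-overlapping CCGG sites and 45 CpG dinucleotides. Among all 35116 RefSeq start-site windows of this length, 63.1% held a CCGG, the median window held 14 CpGs, and 3.48% held at least 45. The absence of a listed region at these starts shows that none was called there, not that the level was equal or that reads covered it.

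A single listed region could be read in full, since it lies within the start-site window of LOC124904789, a protein-coding RefSeq model inside the far end of GNG7. It was listed in pair 3, and capitals mark its CpG dinucleotides.

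GNG7, 189 kb from the start (chr19:2513593-2513690, minus strand): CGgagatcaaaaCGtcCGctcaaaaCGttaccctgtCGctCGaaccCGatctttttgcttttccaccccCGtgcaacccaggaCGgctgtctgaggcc

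These 98 bases hold 9 complete CpGs, which is 18 cytosines over both strands, and the list counts 19 sites there. Its last base is the cytosine of a further CpG that crosses the region's edge. Site counts below are therefore of cytosines on either strand, up to 2 for each CpG. This region stood at 0.245 in control library 3 and at 0.449 in DNMT3A library 3, on a scale where 0 is unmethylated and 1 fully methylated.

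All 27 listed regions of GNG7 were higher in the DNMT3A library, 9 in pair 1, 8 in pair 2 and 10 in pair 3. Over the whole lists 82.1% of regions were higher in pair 1, 81.7% in pair 2 and 81.1% in pair 3. GNG7 held 8.11%, 7.08% and 9.09% of all regions listed on chromosome 19 in pairs 1, 2 and 3. The 27 regions held 4 to 47 CpG cytosines each and spanned 70 to 720 bp. Control levels ran from 0.0331 to 0.318 with a median of 0.149, and DNMT3A levels from 0.186 to 0.620 with a median of 0.462.

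Joining regions that overlap by at least 1 bp gave 10 distinct regions in GNG7 and 1 in GNA11. In GNG7, 6 were listed in all 3 pairs, 1 in pairs 1 and 3, and 3 in a single pair. Of all 3313 distinct regions in the series, 8.21% were listed in all 3 pairs and 21.8% in at least 2. Over the distinct regions of GNG7 the mean difference was 0.256, 0.270 and 0.252 in pairs 1, 2 and 3, or 0.259 ± 0.00948 (SD, n = 3 pairs). Over all 3313 regions it was 0.170 ± 0.00353, and over the 2556 that were higher wherever listed it was 0.279 ± 0.00168. In each of these means a pair counts only the regions it listed, so the SDs compare partly different sets of regions.

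GNG7 is read from the minus strand over 191 kb, and its listed regions lay in the part of the gene away from its start. Every one lay inside the gene, and their place in exons, introns or UTRs was not analysed here. The nearest to the start, chr19:2634808-2634908, began 67786 bp downstream. Next to it was chr19:2634562-2634644. Another 4 of the 10 distinct regions lay at distances from 99951 bp to 140 kb, and the last 4 lay 180 to 189 kb from the start, towards the far end.

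**Figure D1:**
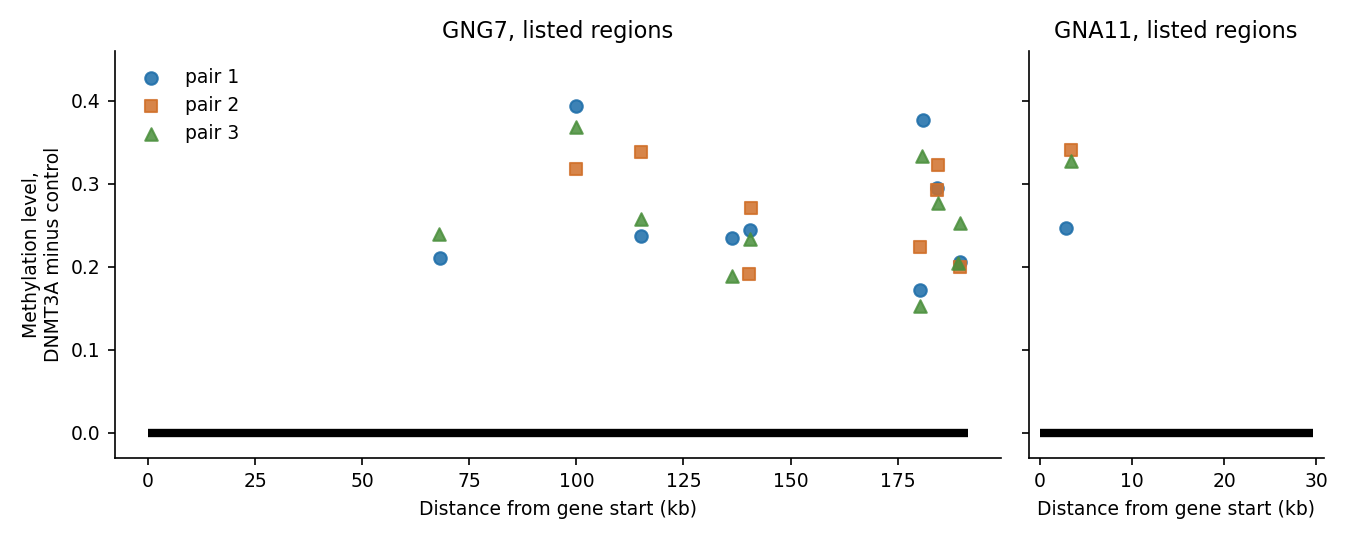
Difference in methylation level (DNMT3A library minus control library of the same pair, vertical axis) of every listed region against the distance of its centre from the annotated gene start in kb (horizontal axis), for GNG7 (left) and GNA11 (right). Points are coloured by pair and the black bar is the gene; all 27 GNG7 and 3 GNA11 points lie above 0, and the GNG7 points begin 67.8 kb from the start.

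The largest difference of any GNG7 region listed in all 3 pairs was at chr19:2602609-2602743, 99951 bp from the start, which had the same bounds and 18 CpG cytosines in every list. Control libraries 1, 2 and 3 stood at 0.153, 0.121 and 0.134, and DNMT3A libraries 1, 2 and 3 at 0.547, 0.438 and 0.502. The groups did not overlap, and DNMT3A library 2 was the lowest of its group while control library 2 was the lowest of the controls. The means were 0.136 ± 0.0166 and 0.496 ± 0.0547 (SD, n = 3 per group), a difference of 0.360 ± 0.0387, rank 42 among the 264 regions that were higher in all 3 pairs.

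The region at chr19:2587494-2587630, 115 kb from the start, also had identical bounds in every list, with 22 CpG cytosines. It had the highest control levels of the 6, at 0.318, 0.281 and 0.264 in libraries 1, 2 and 3, against 0.556, 0.620 and 0.522 with DNMT3A. The groups were separate, at means of 0.288 ± 0.0276 and 0.566 ± 0.0499 (SD, n = 3). Pair 2 differed most, by 0.339, compared with 0.237 in pair 1 and 0.257 in pair 3, so this region had the widest spread between pairs (SD 0.0538). Identical bounds in all lists were found at 2 of the 7 regions of both genes and at 51 of the 272 regions listed in all 3 pairs.

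At chr19:2561705-2562446, 140 kb from the start, the lists differ in how they cut the stretch. Pairs 1 and 3 listed 477 bp with 47 CpG cytosines, shifted by 1 bp, whereas pair 2 listed 2 regions of 418 and 211 bp. Weighted by CpG sites, control libraries 1, 2 and 3 stood at 0.228, 0.260 and 0.207 and DNMT3A libraries at 0.472, 0.501 and 0.441. The order of the 3 libraries was the same in both groups, and the groups did not overlap. The difference of 0.239 ± 0.00512 (SD, n = 3 pairs) had the smallest spread of the 6. In pair 2 this averages differences of 0.271 over the 418 bp and 0.191 over the 211 bp. The order and the SD are therefore of stretches covered unequally by the lists.

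Nearer to the start, at 136 kb, chr19:2566314-2566528 was listed in pairs 1 and 3. Control levels were 0.0889 and 0.0816, and DNMT3A levels 0.324 and 0.270. Pair 2 did not list it, and its levels in the libraries of that pair are not known.

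The joined region at chr19:2521706-2522609, 180 kb from the start, contained stretches with unlike levels. In pairs 1 and 3 a dense stretch of 113 bp with 19 CpG cytosines (chr19:2522497-2522609) stood at 0.0534 and 0.0331 in the controls and at 0.226 and 0.186 with DNMT3A. Pair 2 listed 24 cytosines over 214 bp that include it, at 0.0550 and 0.279. These were the lowest control levels in the gene, and the mean difference over these 3 regions was 0.183 ± 0.0365 (SD, n = 3 pairs).

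Beside the dense stretch lay sparser sequence with a larger difference. Pair 1 listed 7 cytosines over 128 bp there (chr19:2521775-2521902), at 0.148 in the control and 0.526 with DNMT3A. Pair 3 listed 20 cytosines over 720 bp (chr19:2521706-2522425), at 0.128 and 0.462. Over the whole joined region the weighted difference was 0.232 ± 0.0117, a value that mixes stretches covered unequally by the 3 lists.

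At chr19:2518328-2518639, 184 kb from the start, control libraries 1, 2 and 3 stood at 0.214, 0.256 and 0.153 and DNMT3A libraries at 0.509, 0.556 and 0.430. Library 3 was the lowest and library 2 the highest in both groups. Pair 3 listed here only the 70 bp with 5 cytosines at the lower coordinates, where pair 2 gave 0.149 and 0.472, close to 0.153 and 0.430 in pair 3. The remaining stretch, with 18 cytosines in pair 2, stood at 0.286 and 0.579. The difference over the joined region was 0.290 ± 0.0117 (SD, n = 3 pairs).

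The last region along the gene, chr19:2513015-2513305, 189 kb from the start, lies inside both GNG7 and LOC124904789, so it cannot be assigned to either alone. Controls 1, 2 and 3 stood at 0.132, 0.110 and 0.0971, and DNMT3A libraries at 0.338, 0.309 and 0.350. The lists gave 150, 202 and 291 bp here, and the groups did not overlap. Its difference of 0.219 ± 0.0290 was the smallest of the 6, rank 206 of 264.

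The other regions listed in a single pair lay 68 kb from the start. Pair 1 listed 14 cytosines at chr19:2634562-2634644, at 0.0707 in the control and 0.281 with DNMT3A. Pair 3 listed 4 cytosines at chr19:2634808-2634908, at 0.301 and 0.540. They lie close together but share no base, so neither repeats the other.

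**Figure D2:**
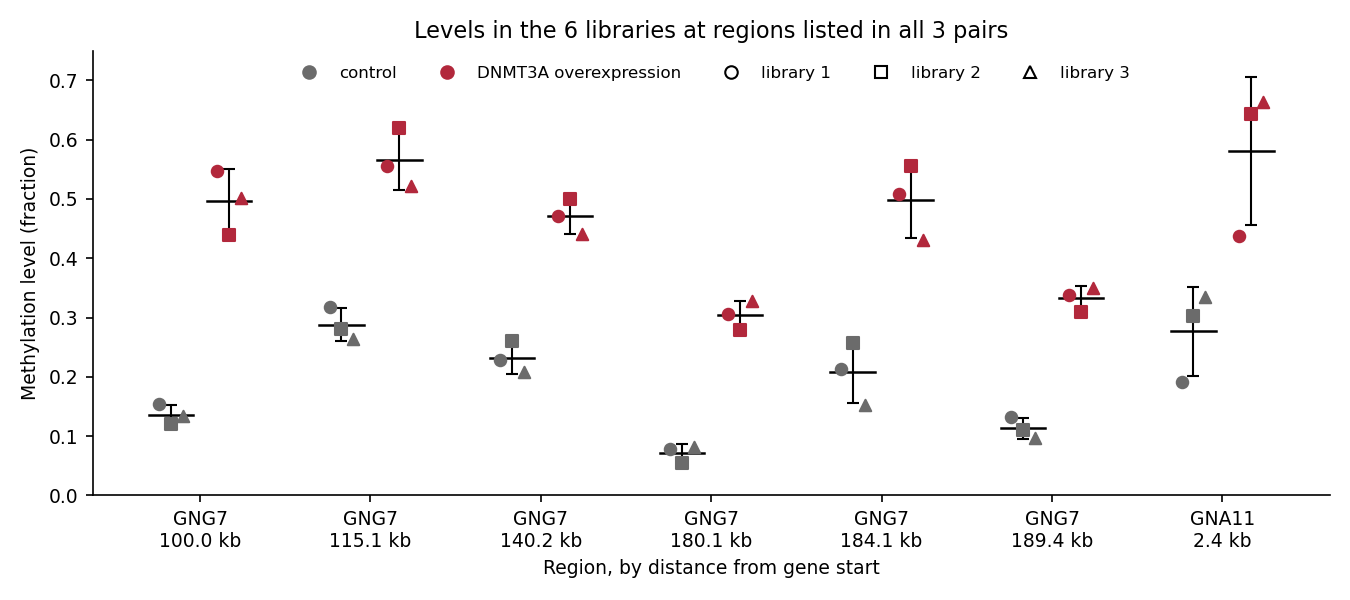
Methylation level (fraction, vertical axis) of each library at the 6 GNG7 regions and the 1 GNA11 region listed in all 3 pairs, placed by distance from the gene start. Symbols give the library number, horizontal lines the group mean and bars ± 1 SD (n = 3); at each region the lowest DNMT3A library lies above the highest control, by 0.102 at GNA11 and by 0.174 to 0.285 at GNG7.

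Averaged over the 6 shared regions of GNG7, the control libraries stood at 0.187, 0.180 and 0.156 and the DNMT3A libraries at 0.455, 0.450 and 0.429. Library 3 was the lowest of each group. The means were 0.175 ± 0.0164 and 0.445 ± 0.0139 (SD, n = 3), beside 0.186 ± 0.000609 and 0.463 ± 0.00192 over the 264 regions higher in all 3 pairs. These SDs are not comparable, since they are of averages over 6 and over 264 regions. The median SD of single regions was 0.0221 in controls and 0.0398 with DNMT3A at GNG7, beside 0.0216 and 0.0338 over the 264. As a share of what was unmethylated in the controls, the 6 regions gained 24.7% to 41.7%, with a median of 33.9%, beside a median of 35.5% over the 264.

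GNA11 had a single distinct region, higher in all 3 pairs. The gene is read from the plus strand over 29.6 kb, and the region lay inside the gene, towards its start. Pairs 2 and 3 listed the same 89 bp with 20 CpG cytosines, chr19:3097707-3097795, a density of 22.5 cytosines per 100 bp, which is above that of every listed GNG7 region (2.78 to 19.4). These 89 bp begin 3345 bp downstream of the gene start. Pair 1 listed 1037 bp with 31 cytosines, chr19:3096759-3097795, which contains those 89 bp and begins 2397 bp downstream.

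Control library 2 stood at 0.303 and control library 3 at 0.335, and the DNMT3A libraries of these pairs at 0.643 and 0.663. Over the longer region of pair 1 the levels were 0.191 and 0.438. Both libraries of pair 1 were the lowest of their groups, and a level over the 89 bp alone is not given for that pair. The groups did not overlap. The means were 0.277 ± 0.0756 and 0.581 ± 0.125 (SD, n = 3) and the difference 0.305 ± 0.0509, or 0.334 over pairs 2 and 3 alone. The SDs within both groups were larger than at any of the 6 shared regions of GNG7. They mix the 1037 bp of pair 1 with the 89 bp of pairs 2 and 3, so they are not the spread of 1 stretch. Without pair 1 the SD of the difference was 0.00889 (n = 2 pairs).

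Levels in these genes fell within the range of the other shared regions. The groups did not overlap at 7 of the 7 regions of GNG7 and GNA11, and 95.6% of the 272 regions listed in all 3 pairs were higher with separate groups. A call in each pair makes separate groups likely but does not fix them, as 10 of the 272 overlapped. Nothing is read from either share. By size of difference the 7 regions ranked 42 to 206 of 264, and by control level, from the lowest, 52 to 212.

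**Figure D3:**
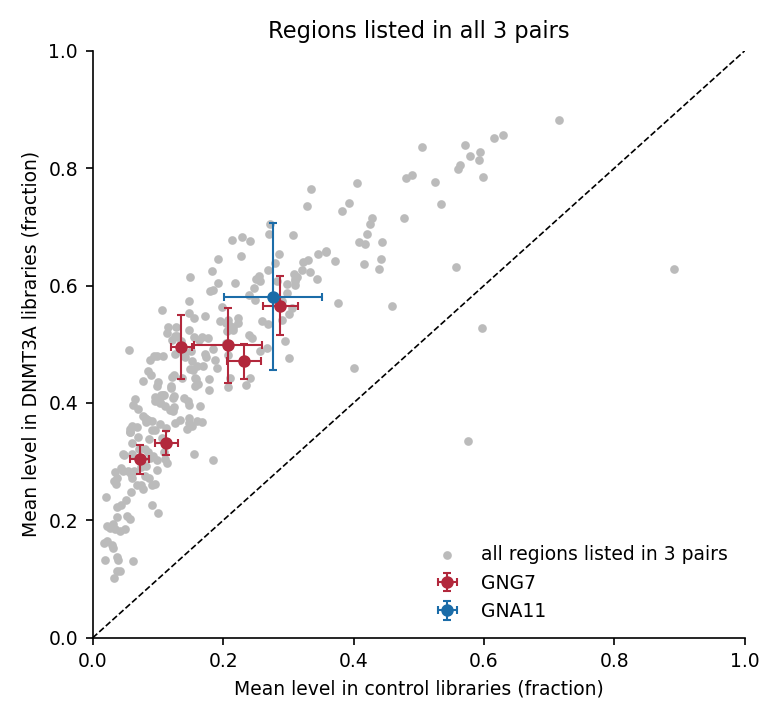
Mean methylation level in the 3 DNMT3A libraries (vertical axis) against that in the 3 control libraries (horizontal axis) for the 272 regions listed in all 3 pairs, in grey, with the 6 GNG7 regions in red and the GNA11 region in blue. Bars are ± 1 SD (n = 3), the dashed line marks equal levels, and the coloured points lie above it among the grey ones, at control means of 0.0720 to 0.288.

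GNG7 held 6 distinct regions listed in all 3 pairs, more than any other of 20052 protein-coding genes, of which 1 held 5, 5 held 3, 14 held 2 and 171 held 1. The gene may have been chosen for this count, so it has no test. By all distinct regions, 7 genes held 10 or more: CACNA1H and PTPRN2 with 22 each, GSE1 with 13, BCL11B and MEGF6 with 12 each, and PRDM16 and GNG7 with 10 each. Per 100 kb of gene GNG7 held 5.22 distinct regions, compared with 32.0 in CACNA1H, 11.7 in BCL11B, 8.77 in MEGF6, 2.71 in PRDM16, 2.57 in GSE1 and 2.10 in PTPRN2. The lists do not show where reads fell without a call, so these numbers are not corrected for coverage.

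Regions elsewhere with levels most like those of GNG7 and GNA11 were sought. The regions of both genes were left out of the search, so none of them could be named as nearest. Likeness was the root mean square difference of levels over the 6 libraries, among 265 other regions listed in all 3 pairs. The closest pair of regions was chr19:2521706-2522609 of GNG7 and a region at FRMD8 and SLC25A45, which differed by 0.0145, followed by XXYLT1 at 0.0148. The region of GNG7 at 100 kb was closest to regions of EPHA2 (0.0194) and IQSEC1 (0.0234), and the one at 189 kb to NFIX (0.0237) and to a region of chromosome 17 without a gene within 1 kb (0.0288). RAB40C was among the nearest for the regions at 140 kb (0.0302) and 184 kb (0.0428), with MYOM1 (0.0333) and a region of chromosome 22 without a gene within 1 kb (0.0370) beside it. At 115 kb the nearest were a region of chromosome 21 without a gene within 1 kb (0.0313) and IGF2BP1 (0.0362). The GNA11 region was nearest to TRIM65 (0.0455) and PPP1CB (0.0497). With 6 libraries in 2 groups, such likeness mostly says that the control and DNMT3A levels are close.

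Outside the windows the nearest listed regions were few. A region 9632 bp beyond the far end of the GNG7 window, chr19:2500294-2500368 with 5 cytosines, was listed in pair 1 in the opposite direction, at 0.677 in the control and 0.276 with DNMT3A. Pair 2 listed a region in GADD45B, a stress-response gene, at 0.0338 and 0.131. Next to GNA11, TLE5, a transcriptional corepressor gene, was listed in pair 1 at 0.210 and 0.372 and in pair 2 at 0.275 and 0.459. No region was listed within 1 kb of DIRAS1, which follows GNG7 on the side of its start, nor of MIR7850, which lies inside GNG7.

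Other genes of the pathway were followed through 9 lists with 101 genes besides GNG7 and GNA11, all of which were found in RefSeq. A listed region lay within 1 kb of 19 of them (18.8%), against 8.84% of all protein-coding genes, and 8 of them (7.92%) were listed in at least 2 pairs, against 2.95%. Gene length and CpG content were not matched, so these shares are not an enrichment. Of the 19 genes, 16 had only higher regions (84.2%, against 73.1% of all protein-coding genes with a region), 1 only a lower one and 2 both. Their 38 listed regions had a median difference of 0.278, beside 0.236 over all listed regions.

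Among the other subunits, 3 of 31 had a region, where 8.84% of all protein-coding genes did. These counts are small and near that share, so nothing is read from genes without a region. None of the other 11 gamma subunit genes was listed, and GNB1 was the single beta gene, in pair 3 (0.479 and 0.758). Among alpha subunits, GNAL, the olfactory type that pairs with gamma 7, was listed in pair 2 at 0.279 and 0.581. GNAS, the imprinted gene of the Gs alpha subunit, had regions in both directions in pairs 1 and 2. At chr20:58888736-58888984 the controls stood at 0.619 and 0.586 and the DNMT3A libraries at 0.250 and 0.442, while at chr20:58890516-58890713 they stood at 0.208 and 0.124 and at 0.424 and 0.273. GNAQ, the nearest relative of GNA11, and GNA15, its neighbour on the chromosome, had no listed region.

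The list of Gq-linked and second messenger effectors held 3 of the 8 genes listed in at least 2 pairs. ITPR3, an inositol trisphosphate receptor of the endoplasmic reticulum, stood at 0.0931 and 0.100 in controls 1 and 2 and at 0.475 and 0.530 with DNMT3A over the same 187 bp, whereas pair 3 listed 1723 bp at 0.359 and 0.472. PRKCD, protein kinase C delta, stood at 0.0881, 0.119 and 0.157 in controls 1, 2 and 3 and at 0.347, 0.522 and 0.465 with DNMT3A (chr3:53169488-53169581), without overlap. PLCB4 was the single phospholipase C beta gene listed, in pair 2, from 0.0393 to 0.112. Of the 16 genes in the effector list, 7 had a region, where 8.84% of all protein-coding genes did, with gene length not matched. All 18 listed regions were higher, where 81.1% to 82.1% of each whole list were, with a median difference of 0.307 beside 0.265 over all higher regions. Places of ITPR3, PRKCD and PRKAR1B that several pairs listed count more than once among the 18. None of the other pathway lists had as many genes with a region. The lists held from 4 genes (phospholipase C beta) to 21 (RGS proteins, 3 with a region), so some were too short to reach 7.

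PRKAR1B, a regulatory subunit of protein kinase A, had 4 distinct regions. That at chr7:617704-617902 was listed in all 3 pairs, at 0.227, 0.171 and 0.216 in the controls and at 0.525, 0.481 and 0.603 with DNMT3A, without overlap. Another, chr7:553324-553471, was listed in pairs 1 and 2, at 0.0408 and 0.0779 and at 0.194 and 0.359.

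Regulators of the G protein cycle had mostly higher regions, as did each whole list (81.1% to 82.1%). Higher were 4 of 4 for RGS proteins, 4 of 5 for receptor kinases and arrestins, and 3 of 3 for alpha subunit chaperones and activators. GPSM1, which binds inactive Gi alpha subunits, was higher in all 3 pairs (chr9:136356014-136356514), at 0.115, 0.197 and 0.127 in the controls and at 0.344, 0.442 and 0.423 with DNMT3A. The receptor kinase gene GRK6 was higher in pairs 1 and 3, at 0.189 and 0.233 and at 0.596 and 0.527. For GRK4, another receptor kinase gene, the listed regions lay wholly outside the gene, within 1 kb of it. They went in opposite directions, from 0.842 to 0.624 in pair 1 and from 0.416 to 0.727 in pair 3, where the listed bounds differ. RGS20, which speeds GTP hydrolysis by alpha subunits, was higher in pairs 1 and 2 by 0.130 and 0.142.

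**Figure D4:**
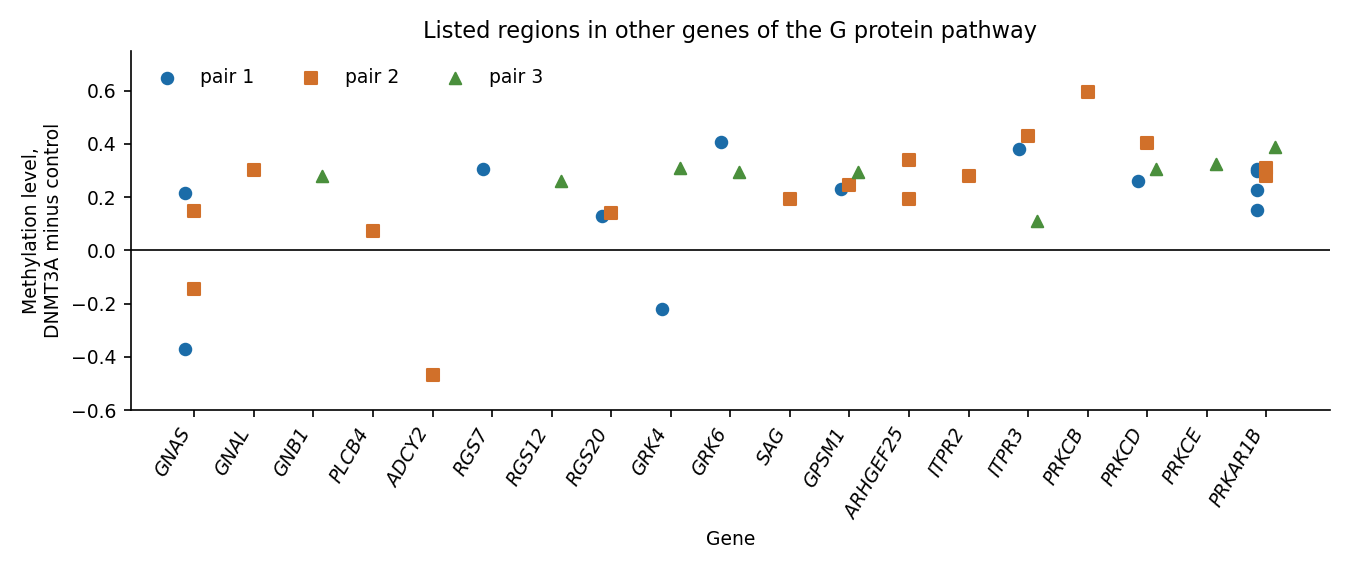
Difference in methylation level (DNMT3A minus control library of the pair, vertical axis) of each of the 38 listed regions in or within 1 kb of the 19 other G protein pathway genes with a region (horizontal axis), coloured by pair. Of these points 34 lie above 0, and those below it belong to GNAS, ADCY2 and GRK4.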

How the data were processed

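RRBS libraries, 3 control and 3 DNMT3A-overexpressing, were grouped by the labels. Per the labels' protocols, MspI-cut DNA with a lambda spike-in was bisulfite-treated. The submitters' processing notes name hg38. The sources used here name no aligner, no region caller and no thresholds. Per the file headers, the authors gave each region's mean level in both libraries as a fraction, with the number of CpG sites as a count, its length, a signed difference and an area score (not used). The deposited mapping table gives read counts and percent rates. Levels were not adjusted further.

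Regions of all pairs were joined when sharing at least 1 bp, and several regions of a pair were averaged by CpG sites (Python 3.11.15, pandas 2.3.3). No test was run, because the calls chose the regions. Genes are from RefSeq GRCh38.p14, with 1 kb added. Of 112 regions inside RefSeq start-site windows, all 112 began and ended on a CpG cytosine with positions counted from 1, and 87 listed more sites than CpGs, never over 2 per CpG, so strands are counted separately. All regions of both genes are given. Of the pathway lists, genes in at least 2 pairs are named, and those named in a single pair were picked after their values were seen. The genes and lists were chosen with earlier results of these data known. The alternatives are named in the closing section, with their main values.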

Additional observations from a re-analysis of the deposited data

How the results depend on the processing

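No paired analysis was possible because no model was fitted and no test run, so there is no fit to which a replicate block could be added; the differences given are themselves within-pair values. All 55 mean differences, as reported and under every alternative run, were above 0. This could not come out otherwise, since every listed region of both genes was higher and no alternative added a region. Keeping regions with a difference of at least 0.2 left 22 regions in GNG7 and moved its mean difference to 0.278, as the filter removes small differences. Requiring 6 CpG sites left 24 regions. Joining only regions that overlap by at least 50% of the shorter gave 12 distinct regions in GNG7. Of these, 8 were listed in at least 2 pairs, beside 7 of 10 as reported, and the mean difference was 0.259. The counts stayed the same with the annotated gene extent, with 5 kb more on each side, and with joining across gaps of up to 100 bp. Leaving out each pair left 17 to 19 regions in GNG7 (17 without pair 3, as fewer lists remain) and 2 in GNA11, mean differences of 0.257 to 0.267 and 0.287 to 0.334, and 6 to 8 recurrent regions in GNG7. At chr19:2521706-2522609 the difference was 0.247 unweighted and 0.235 without pair 1, beside 0.232 ± 0.0117 as reported. The region splits and has no value without pair 2 or pair 3, as does chr19:2518328-2518639 without pair 1. Over the regions that hold chr19:2522497-2522609, an alternative chosen after seeing the data, the difference was 0.183. The 0.247 and the 0.183 lay outside the SD of the reported value, and the 0.235 within it. Unlike stretches are joined in this region. Depth per region is unknown and limits every level.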

Other observations

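Pathway genes listed in a single pair included the largest differences of the lists followed. PRKCB, protein kinase C beta, stood at 0.362 in control library 2 and 0.958 in DNMT3A library 2, over 7 CpG cytosines. ADCY2, an adenylyl cyclase gene, stood at 0.492 and 0.0252 in the same pair over 4 cytosines. It was the only adenylyl cyclase gene of 10 with a listed region, where 8.84% of all protein-coding genes had one. PRKCE was listed in pair 3 at 0.499 and 0.823, and ITPR2 in pair 2 at 0.449 and 0.727. None of these was listed again, and these genes were picked after their values were seen.

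Regulators listed once were RGS7 in pair 1 (0.0771 and 0.384), RGS12 in pair 3 (0.540 and 0.800) and the arrestin gene SAG in pair 2 (0.101 and 0.295). The RGS7 region lay wholly outside the gene, within 1 kb of it.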
